A study of Mus musculus with 6 samples.

Results

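Noradrenaline and adrenaline reach bone marrow from sympathetic nerves and the blood, and adrenergic receptors on marrow cells and their niche receive them. A beta receptor acts through the stimulatory G protein Gs, which turns on adenylyl cyclase and raises cyclic AMP (cAMP), whereas an alpha-2 receptor acts through the inhibitory protein Gi. The signal is ended at several levels: receptor kinases phosphorylate the active receptor, beta-arrestins then bind it and uncouple it from Gs, and phosphodiesterases of the PDE4 family, recruited in part by the arrestins, break down cAMP.

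Described here are 8 genes of this system, chosen by name and read from their rows among the 47561 entries of each deposited file. They are the receptors Adrb1 and Adrb3 (beta) and Adra2a (alpha-2), the Gs alpha subunit Gnas, the beta-arrestins Arrb1 and Arrb2, and the phosphodiesterases Pde4b and Pde4d. All 8 were found in all 6 files. The libraries came from mouse bone marrow cells, 3 from control mice (labelled as negative control) and 3 from mice kept for 4 weeks under chronic unpredictable mild stress (CUMS), a procedure of changing mild stressors whose treatment label is depression. Strain, age and pooling of animals are not given in the sources used here, and whether each library is another animal is not stated either. The p-values therefore reflect the scatter of these libraries, which may be technical. Values are FPKM, fragment counts scaled to transcript length and library size.

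The libraries had 21334 to 23224 genes above 0. Their depth in counts is unknown, and each error given comes from the scatter within a group of 3. A code in the file headers was 1 in replicate 1 of each group and 2 in the other 4 libraries. What it stands for is not stated, but 3747 of 12302 tested genes (30.5%) differed between the codes at an adjusted p under 0.05 by limma, so values within each code are given beside the pooled ones where they bear on a result. Defining markers of marrow were high in all 6 libraries, with summed levels of 35100 to 49800 FPKM for 6 neutrophil markers and 48300 to 72400 FPKM for 5 erythroid markers.

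The question of the comparison was whether transcripts of this receptor system differed after stress. None of the 8 genes passed the test. Over the whole table, limma fitted to log2(FPKM + 1) called 132 of 12302 genes (1.07%) at a Benjamini-Hochberg adjusted p under 0.05, 76 higher in CUMS (0.618%) and 56 lower (0.455%). With all libraries brought to 1 sum, 66 were higher and 101 lower. Of the 8 members, 5 had at least 1 FPKM in at least 3 libraries and were tested. The 3 receptors did not reach that level. The largest difference among the tested members was in Pde4d, which was 1.41 times as high in CUMS by the ratio of the means. The next was in Arrb1, 1.21 times as high, a difference that passed the test only when the header code was taken into account. The other 3 ratios lay between 0.935 and 1.08. The groups did not overlap for Pde4d and Arrb2, 2 of the 5 tested, against 22.1% of all tested genes. No member was called with the replicate block either, in a fit that called 7.8% of genes (3.49% higher and 4.31% lower).

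**Figure D1:**
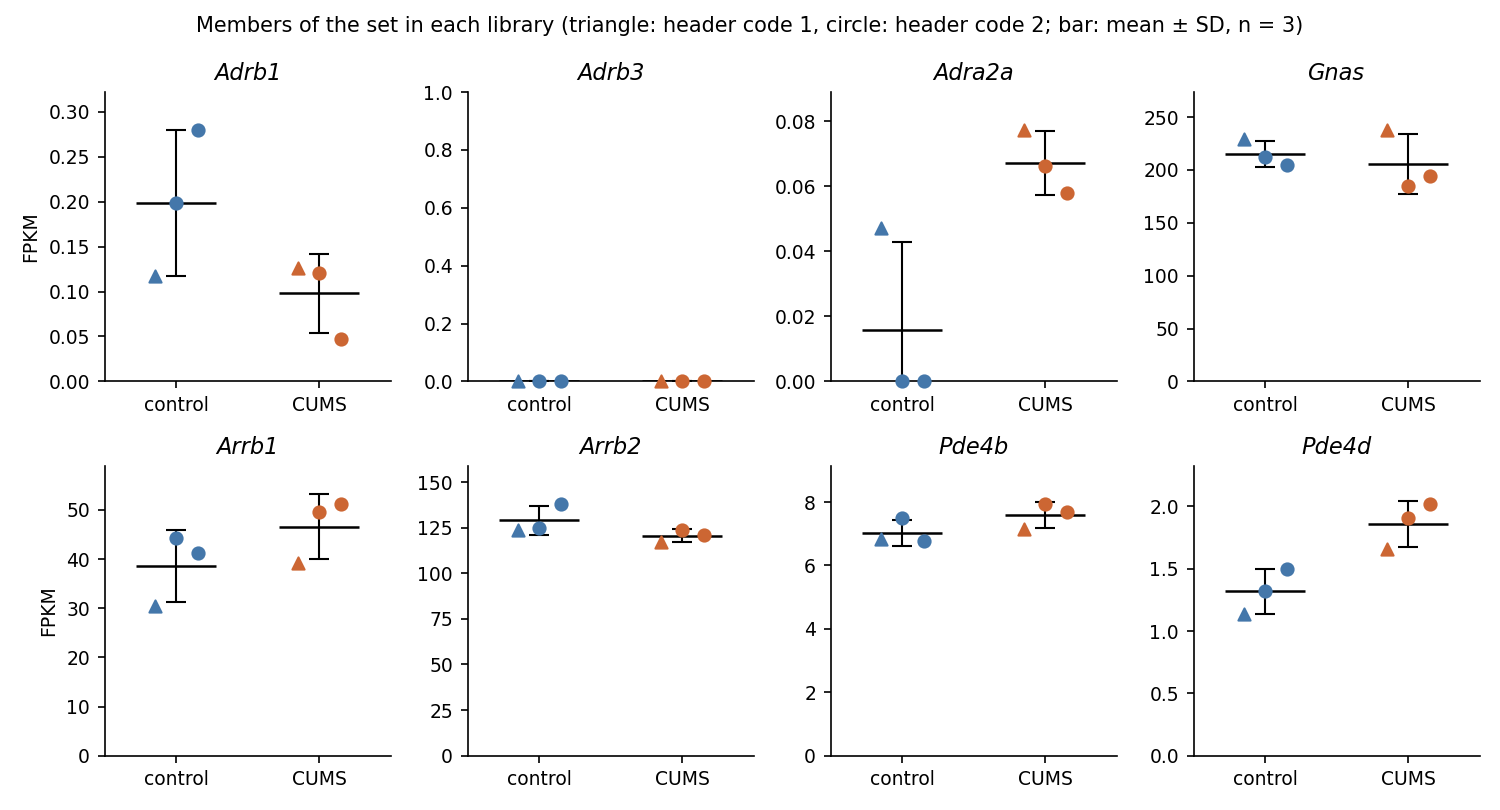
FPKM of each of the 8 genes (vertical axes, linear, from 0) in the 3 control and 3 CUMS libraries, with triangles for header code 1, circles for header code 2, and bars for the mean ± SD (n = 3). The groups lie apart only for Adra2a and Pde4d, where CUMS is above, and for Arrb2, where CUMS is below. Adrb3 is at 0 throughout.

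The 3 receptor genes were at or near the floor of the measurement. Adrb1, the beta-1 receptor known best from the heart (chromosome 19, 56722199 to 56733113, GRCm38), was at 0.117, 0.198 and 0.280 FPKM in control replicates 1 to 3 and at 0.126, 0.121 and 0.0472 FPKM in the CUMS replicates. The groups overlapped, and an exact two-sided permutation test of the FPKM values gave p = 0.3 (n = 3 each, where the smallest p possible is 0.1). Between the libraries of header code 1 the ratio of CUMS to control was 1.08, and between those of code 2 it was 0.353, so the lower mean in CUMS came from code 2.

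Adra2a, an alpha-2 receptor that restrains transmitter release from nerve endings and is also found on platelets (chromosome 19, 54044151 to 54048982), was at 0.0471 FPKM in control replicate 1 and listed at 0 in the other 2 control libraries. In CUMS it was at 0.0774, 0.0662 and 0.0578 FPKM. All 3 CUMS values were above the control values, with an exact two-sided permutation p of 0.1, the smallest that 3 against 3 libraries allow. When every gene above 0 in any library was tested, the limma adjusted p was 0.385, and Adrb1 had 0.579 in the same fit. The 6 megakaryocyte markers, genes of the cells that make platelets, summed to 76.7 to 96.3 FPKM in control and 81.8 to 95 FPKM in CUMS, and none of them was called.

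Adrb3, the beta-3 receptor of fat cells (chromosome 8, 27225776 to 27250616), was listed at 0 in all 6 libraries. Defining adipocyte markers were low as well: the 4 of the list summed to 1.69 to 2.82 FPKM in control and 1.90 to 2.76 FPKM in CUMS, and Lep was at 0 in every library. Of 5 further adrenergic receptor genes examined, Adra1a and Adra2b were at 0 in every library, Adra1d and Adra2c were above 0 in 1 library each, and Adra1b reached 0.0464 FPKM at most. These values speak only for the receptor genes named.

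Th and Dbh, which encode enzymes of noradrenaline synthesis, and Pnmt, which makes adrenaline from it, were listed at 0 in all libraries. Ddc, another gene of this synthesis, missed the level for testing. It was at 0.747, 0.545 and 0.415 FPKM in control and 0.282, 0.393 and 0.406 FPKM in CUMS. Its CUMS values were all lower, as for 12.1% of all tested genes. Maob, a gene of breakdown also below that level, had CUMS values all higher, as for 10% of all tested genes. The 5 nerve and Schwann cell markers, which include Th and Dbh, summed to 0.243 to 0.317 FPKM in control and 0.338 to 0.470 FPKM in CUMS. Among the 2 of 9 genes of synthesis, uptake and breakdown that were tested, none passed. The vesicle transporter Slc18a2 was at 1.91 ± 0.532 FPKM in control and 1.63 ± 0.494 FPKM in CUMS (mean ± SD, n = 3 libraries), and the uptake transporter Slc22a3 at 1.72 ± 0.0776 and 1.81 ± 0.132 FPKM.

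The promoters of these genes were read for the cAMP response element (CRE), the site bound by the transcription factor CREB, because a rise of cAMP acts on transcription through it. The sequences are from RefSeq (GRCm38.p6), 250 bases before to 50 bases after a gene's start, and 5 of the 8 members had an entry, with 11 promoters in all. The full palindrome TGACGTCA was in none of the 11, and it was in 1.79% of all 32851 promoters. The half-site TGACG, or CGTCA where it lies on the other strand, was in 6 of the 11 (54.5%) and in 20.8% of all promoters. A full element counts as a half-site too. The half-sites of the members that lie before a start follow, with 11 bases on each side, 5′ to 3′ on the gene's strand, with the motif in capitals.
Adrb1, chr19:56722016-56722042: ctgcgggagccTGACGcgcggccccgg
Adra2a, chr19:54045179-54045205: cacgtgggggcTGACGccggctgctcg
Gnas, chr2:174327700-174327726: agaggttggggCGTCAtcaggctggtt
Gnas, a start further downstream, chr2:174329779-174329805: gtgtgaggggtCGTCAccaccgcgggg
Pde4b, chr4:102421510-102421536: atttggctgcaCGTCAattttctcatc
The first of the Gnas stretches stands before a pair of close starts, which accounts for 2 of the 6 promoters. The 1 promoter listed for Pde4d held neither motif. For comparison, these are the sites of Fos and Dusp1, a pair of genes that rose in CUMS (values further on): for each the full element where there is one, otherwise the half-site nearest to the start.
Fos, chr12:85473813-85473839: gttccgcccagTGACGtaggaagtcca
Dusp1, chr17:26508597-26508626: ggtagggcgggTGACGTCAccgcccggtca
Among the 12 genes listed as induced by cAMP in many cells, to which both belong, 11 of 11 promoters of 10 genes held a half-site and 2 held the full element. The other full element was in Areg, listed at 0 in all libraries but control replicate 2 (0.111 FPKM). Rgs2 and Nr4a3 held half-sites too, with log2 changes of −0.086 and −0.001, and Nr4a3 was below the level for testing. Since every promoter read for this list held a half-site, the motif could not separate the genes that rose from the others. Egr1, which rose as well, was not among the 10 genes whose promoters were read. A match of letters shows no binding.

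Gnas, which encodes the Gs alpha subunit and, from other starts of the same imprinted locus, several longer or unrelated proteins (chromosome 2, 174284320 to 174346744), had the highest level of the 8. It was at 229, 212 and 205 FPKM in control and 238, 185 and 194 FPKM in CUMS. The groups overlapped, with the highest value in the CUMS library of header code 1 and the lowest values in the CUMS libraries of code 2. The log2 change was −0.07 (95% interval −0.35 to 0.21, limma adjusted p = 0.833). It was 0.06 between the libraries of code 1 and −0.14 between those of code 2. Gnas differed between the codes themselves, by −0.23 on the log2 scale for code 2 minus code 1 (limma adjusted p = 0.0356). Exons of Gnas overlap those of the antisense transcript Nespas (listed as Gnasas1) over 988 bases, an entry that reached 0.221 FPKM at most, and those of the antisense Gm20721 over 1469 bases.

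Partners of Gs in the list of other G protein subunits gave no call: of 12 tested genes none passed, 4 were towards higher and 8 towards lower, and the median log2 change was −0.07, beside −0.002 over all tested genes. Without CUMS replicate 1 it was 6 and 6 with a median of −0.012, and without control replicate 1 the median was −0.026. Gnb2, a beta subunit that is released with gamma when Gs is active, was at 252 ± 11 FPKM in control and 214 ± 21.4 FPKM in CUMS. Its limma adjusted p was 0.337, and 0.0227 in code 2 alone. In code 2 alone 2 genes of this list were called lower, Gnb2 among them, in a fit that called 8.84% of all tested genes lower. Gng12, a gamma subunit, was at 11.1 ± 0.825 and 12.6 ± 0.379 FPKM, and Gna11, an alpha subunit of the Gq class, at 5.93 ± 0.641 and 4.85 ± 0.661 FPKM. Among the 4 tested adenylyl cyclases, the enzymes that Gs activates, Adcy6 was at 5.22, 9.44 and 9.81 FPKM in control and 7.65, 12.7 and 12.3 FPKM in CUMS. Each CUMS replicate of Adcy6 was above the control replicate with the same number, and the limma adjusted p was 0.531 without and 0.0341 with the replicate block, and 0.0141 with the header code as a term. Adcy7 and Adcy9 had log2 changes of −0.15 and −0.11, neither past the test.

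The beta-arrestins stood at different levels, and their differences had opposite signs, neither past the test over all 6 libraries. Arrb2 encodes beta-arrestin 2 (chromosome 11, 70432635 to 70440828) and ranked 424 of all entries by mean FPKM. Its values were 124, 125 and 138 FPKM in control and 117, 124 and 121 FPKM in CUMS. All 3 CUMS values were below the control values, by a margin under 1 FPKM at the nearest pair. Of all tested genes 12.1% had groups apart in this direction. The log2 change was −0.09 (SE 0.0888, 95% interval −0.30 to 0.11, limma adjusted p = 0.674). The microRNA gene Mir7115 lies within Arrb2 exon sequence over 64 bases on the same strand, and reads there cannot be told apart. It was listed at 44.0, 60.3 and 65.4 FPKM in control and 28.7, 42.0 and 41.5 FPKM in CUMS, lower in CUMS throughout, as Arrb2 was.

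Arrb1, which encodes beta-arrestin 1 (chromosome 7, 99535466 to 99606771), was at 30.4, 44.3 and 41.2 FPKM in control and 39.1, 49.5 and 51.2 FPKM in CUMS. The groups overlapped, because the CUMS library of header code 1 lay below both control libraries of code 2. Within each code CUMS was higher, by a ratio of 1.29 in code 1 and 1.18 in code 2. Over all 6 libraries the log2 change was 0.27 (SE 0.165, 95% interval −0.11 to 0.66, limma adjusted p = 0.488). With the header code as a term the SE was 0.0640 and the adjusted p 0.0306, in a fit where 13.4% of all tested genes were called, 6.06% higher and 7.31% lower. In the 4 libraries of code 2 alone the adjusted p was 0.0479, and there 17.7% of genes were called, 8.82% higher and 8.84% lower. With the replicate block it was 0.0653. The code itself moved Arrb1 by 0.42 on the log2 scale, higher in code 2 (adjusted p = 0.00414), which is more than the difference between the groups.

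Together the arrestins summed to 168 ± 12.7 FPKM in control and 167 ± 9.54 FPKM in CUMS. Arrb1 made up 19.7%, 26.1% and 23.0% of that sum in control and 25%, 28.6% and 29.7% in CUMS. The shares overlapped between the groups, since CUMS replicate 1 lay below control replicate 2. Within a code each CUMS library had the larger share. The ratio of Arrb2 to Arrb1 was 3.42 ± 0.628 in control and 2.62 ± 0.333 in CUMS (mean ± SD, n = 3). No test was made of these ratios.

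**Figure D2:**
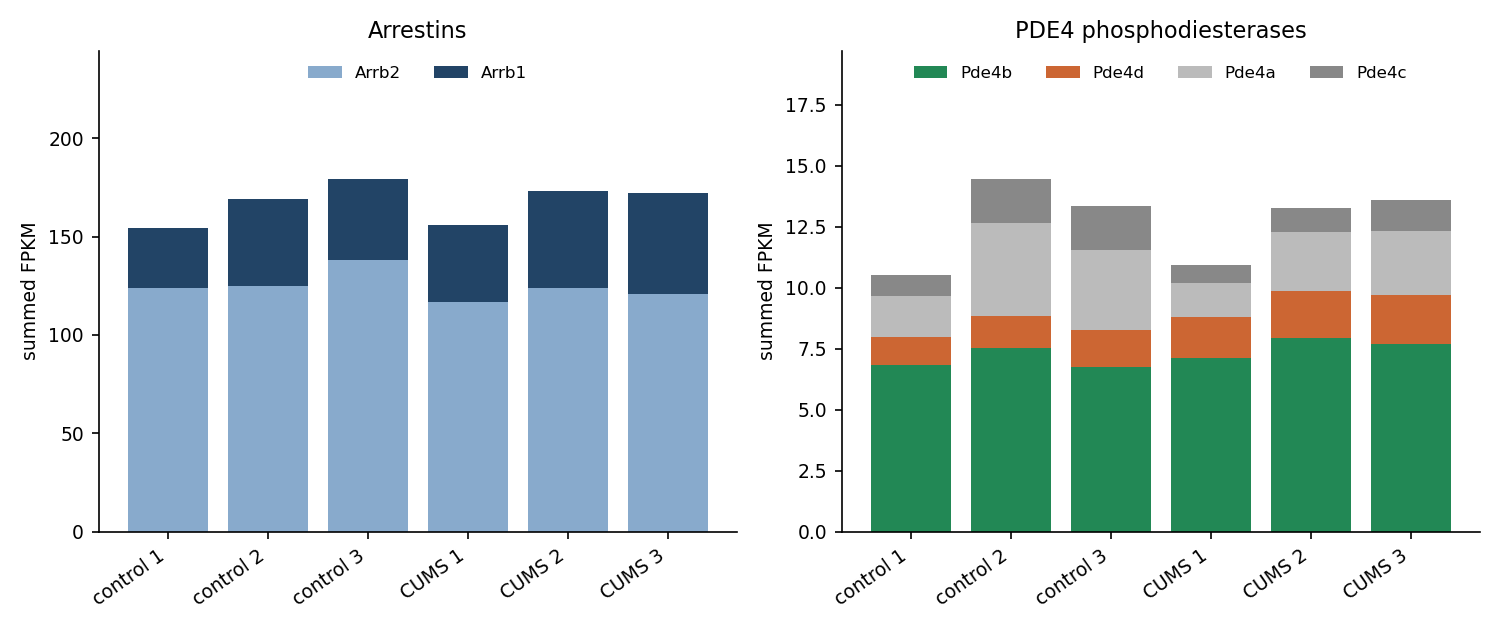
Stacked bars of FPKM (linear axes from 0) in each of the 6 libraries for Arrb2 and Arrb1 on the left and for Pde4b, Pde4d, Pde4a and Pde4c on the right. The Pde4d segment makes up 9.16% to 11.3% of the PDE4 sum in control and 14.4% to 15.2% in CUMS.

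Pde4b, the PDE4 enzyme most tied to inflammatory responses of myeloid cells (chromosome 4, 102087543 to 102607259), was at 6.84, 7.51 and 6.76 FPKM in control and 7.14, 7.94 and 7.70 FPKM in CUMS. The groups overlapped, since control replicate 2 lay above CUMS replicate 1. The log2 change was 0.10 (SE 0.0972, 95% interval −0.13 to 0.32, limma adjusted p = 0.70).

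Pde4d, the PDE4 enzyme known to be brought to beta receptors by arrestin (chromosome 13, 108449948 to 109953461), was at 1.14, 1.32 and 1.5 FPKM in control and 1.66, 1.91 and 2.02 FPKM in CUMS. All 3 CUMS values were above the control values, as was the case for 10% of all tested genes in this direction. The ratio was 1.46 in header code 1 and 1.39 in code 2. The log2 change was 0.30 (SE 0.123, 95% interval 0.02 to 0.59), with an unadjusted limma p of 0.0398. Of all tested genes 15.4% had an unadjusted p under 0.05. Adjusted over all tested genes it was 0.30, and 0.0982 with the replicate block and 0.0711 with the header code as a term. At these levels, close to the minimum for testing, log2(FPKM + 1) understates the ratio. The annotation lists 20 transcripts for Pde4d and 13 for Pde4b, long and short forms from several starts, and 1 value per gene cannot part them.

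Within the PDE4 family the sum hardly differed, at 12.8 ± 2.07 FPKM in control and 12.6 ± 1.48 FPKM in CUMS. Pde4d took 10.4% ± 1.12 of the sum in control and 14.8% ± 0.40 in CUMS, with no overlap. Pde4b was the largest part in every library, at 50.6% to 65.1% in control and 56.7% to 65.4% in CUMS. Pde4a was at 2.93 ± 1.11 and 2.14 ± 0.651 FPKM and Pde4c at 1.48 ± 0.557 and 1.00 ± 0.276 FPKM, neither past the test (limma adjusted p = 0.626 and 0.55). Both were higher in code 2 than in code 1, and the shares of Pde4a, Pde4b and Pde4c moved with the code. Within each code the shares of Pde4a and Pde4c were also lower in CUMS, and that of Pde4b was higher. No test was made of the shares. The Pde4d share moved little with the code. In control it was 10.8% in code 1 and 9.16% and 11.3% in code 2, and in CUMS 15.2% in code 1 and 14.4% and 14.8% in code 2. Of the 7 other cAMP phosphodiesterases tested, none passed, 2 were towards higher and 5 towards lower (median log2 change −0.11). Leaving out control replicate 2 gave a median of −0.017 and leaving out control replicate 1 one of −0.21. It was −0.072 when CUMS replicate 1 was left out and −0.17 when CUMS replicate 3 was. Pde2a, a phosphodiesterase that cyclic GMP stimulates, was at 53.7 ± 2.31 FPKM in control and 49.8 ± 2.75 FPKM in CUMS, well above any PDE4 gene. Pde7b missed the level for testing, at 1.10 ± 0.156 FPKM in control and 0.405 ± 0.0436 FPKM in CUMS. Its CUMS values were all lower, as for 12.1% of all tested genes. With no filter on low values its limma adjusted p was 0.12, and of the 12 genes of the list 4 were towards higher and 8 towards lower.

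Set in order, the levels of the 8 genes spanned a wide range in both groups. Gnas was highest in every library, followed by Arrb2, Arrb1, Pde4b, Pde4d and then the receptors. The lowest Gnas value, 185 FPKM, was above the highest Arrb2 value, 138 FPKM, and the ranges of Arrb2, Arrb1, Pde4b, Pde4d and Adrb1 were likewise separate from each other. Adrb1 and Adra2a overlapped, between 0.0472 and 0.280 FPKM and between 0 and 0.0774 FPKM, as did Adra2a and Adrb3.

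The kinases that prepare the receptor for arrestin stand in a list of 13 genes with scaffolds and turnover enzymes. Of 11 tested none passed, 3 were towards higher and 8 towards lower, and the median log2 change was −0.16. Without CUMS replicate 1 it was 5 and 6 with a median of −0.034, and the median was −0.066 without control replicate 2 and −0.092 without control replicate 3. Grk2, the kinase first described on the beta receptor, was at 131, 152 and 155 FPKM in control and 123, 119 and 122 FPKM in CUMS. All CUMS values were below the control values (log2 change −0.26, SE 0.0972, limma adjusted p = 0.264). With the header code as a term the adjusted p was 0.0444, and in code 2 alone 0.00855. Grk5 was at 5.97, 5.17 and 5.51 FPKM in control and 2.66, 4.26 and 4.16 FPKM in CUMS, also without overlap. Its log2 change was −0.93 between the libraries of code 1 and −0.28 between those of code 2, so that the code 1 pair carried much of the mean of −0.50 (adjusted p = 0.196, and 0.0448 with the code as a term). Grk6, the other kinase abundant here, was at 71.5 ± 2.90 and 69.1 ± 1.25 FPKM. Nedd4, a ubiquitin ligase that acts on internalized beta receptors, was at 23.9 ± 1.29 and 29.4 ± 1.29 FPKM, with CUMS above control throughout (log2 change 0.29, adjusted p = 0.185, and 0.0263 with the code as a term). With that term 1 gene of the list was called higher and 4 lower, in a fit that called 13.4% of all tested genes in either direction.

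**Figure D3:**
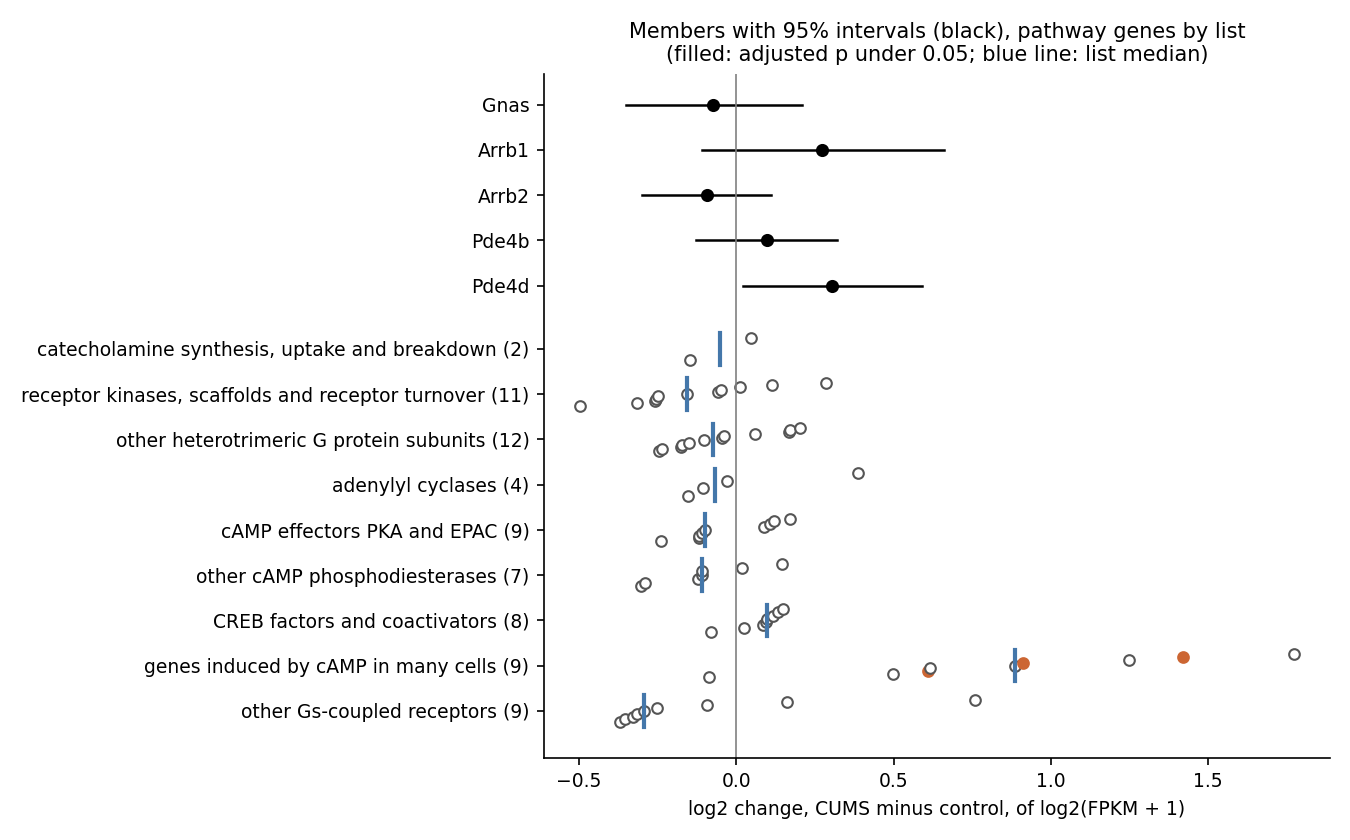
Log2 change of log2(FPKM + 1), CUMS minus control (horizontal axis), for the 5 tested members with 95% intervals and for the tested genes of each pathway list as circles, filled where the adjusted p is under 0.05, with the list median as a blue line. The members lie between −0.09 and 0.30, and filled circles occur only among the genes induced by cAMP.

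Downstream of cAMP, the list of protein kinase A and EPAC genes gave no call among 9 tested (4 towards higher, 5 towards lower, median log2 change −0.10, but −0.059 without control replicate 1 and 0.014 with no filter on low values). In code 2 alone 2 genes of this list were called higher, where 8.82% of all tested genes were. The catalytic subunit Prkaca was at 20.0 ± 0.926 FPKM in control and 18.4 ± 0.534 FPKM in CUMS, and the catalytic subunit Prkacb at 14.0 ± 1.04 and 15.3 ± 0.362 FPKM. Pkig, an inhibitor of the kinase, was at 53.4 ± 5.47 and 45.1 ± 5.23 FPKM. None of the 8 CREB factors and coactivators passed either (7 towards higher, median 0.10). Their direction hung on single libraries: without control replicate 1, 2 were towards higher and 6 towards lower (median −0.17), and without CUMS replicate 2 or 3 it was 4 and 4 (medians 0.001 and 0.009). Creb1 was at 11.3 ± 2.04 and 12.3 ± 1.36 FPKM, Atf1 at 33.1 ± 2.26 and 35.5 ± 2.81 FPKM, and Crem, whose short product ICER is itself induced by cAMP, at 2.91 ± 0.538 and 3.27 ± 0.399 FPKM.

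Genes that cAMP induces in many cells, but that growth factors, stress and tissue handling induce as well, were the one list with calls. Of 9 tested, 3 rose, where 0.618% of all tested genes were called higher. The median log2 change was 0.89. For 8 of the 9 the CUMS values were all above the control values, as for 10% of all tested genes. Fos, an early transcription factor, had 160.0, 187 and 177 FPKM in control and rose to 328, 334 and 324 FPKM in CUMS (log2 change 0.91, SE 0.0967, limma adjusted p = 0.00887). Egr1, another early factor, rose by 1.42 on the log2 scale (16.4 ± 4.2 FPKM in control, 45.2 ± 9.17 FPKM in CUMS, limma adjusted p = 0.0285). Dusp1, a phosphatase that turns off MAP kinases, rose by 0.61 (141 ± 3.17 and 216 ± 18.3 FPKM, limma adjusted p = 0.0331). Fosb, Per1 and Nr4a1 had log2 changes of 1.77, 1.25 and 0.89 without passing (adjusted p = 0.0801, 0.0997 and 0.101). With the replicate block 8 of the 9 were called higher, where 3.49% of all genes were. The number called was 2 when CUMS replicate 1 was left out, 1 when control replicate 2 was, and 0 when any of control replicate 3 and the CUMS replicates 2 and 3 was. Without a filter on low values it was 1 (Fos), and with all libraries brought to 1 sum it was 2, as Egr1 no longer passed (limma adjusted p = 0.0698). The list was chosen with earlier results of these libraries known, so its direction is not independent evidence.

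**Figure D4:**
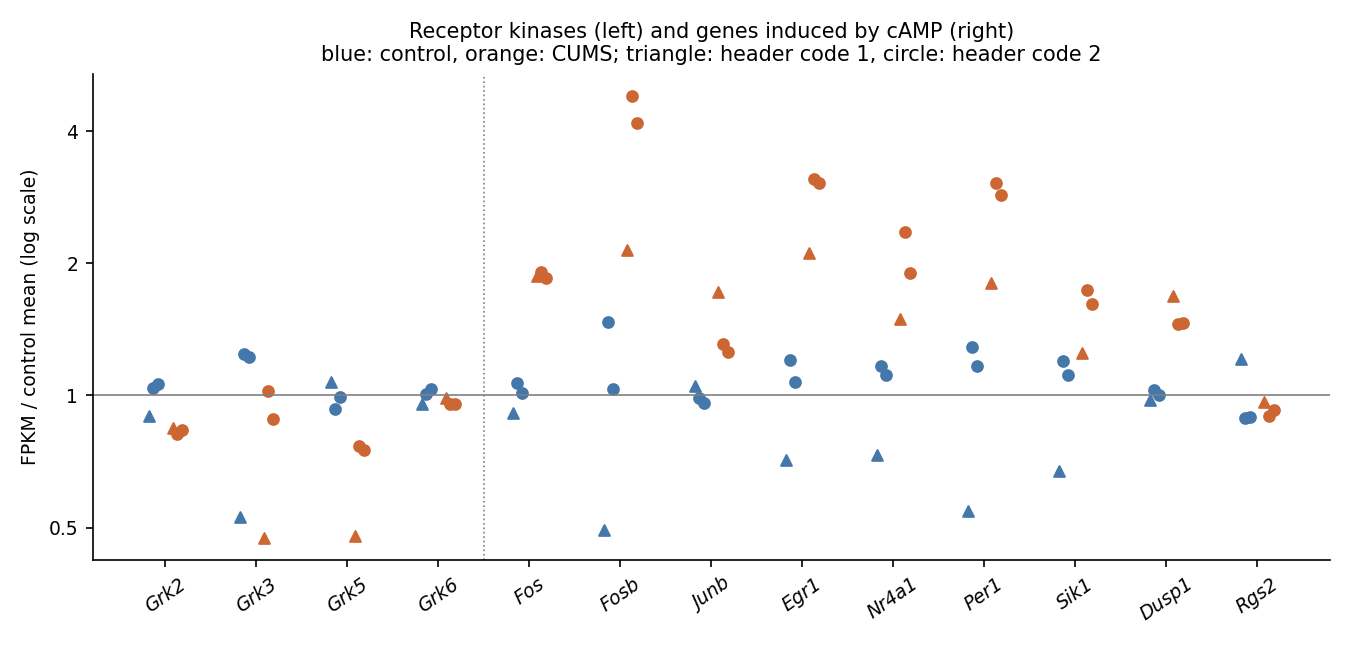
FPKM of each library divided by the mean of the control libraries (log axis) for the receptor kinases Grk2, Grk3, Grk5 and Grk6 and for the 9 tested genes induced by cAMP, with blue for control, orange for CUMS, triangles for header code 1 and circles for header code 2. Grk2 and Grk5 lie lower in all CUMS libraries, Grk6 overlaps, and 8 of the 9 induced genes lie higher in all CUMS libraries.

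Other receptors that couple to Gs were mostly towards lower. Of 9 tested none passed, 7 had values towards lower, 5 of the 9 with groups apart (12.1% of all tested genes in this direction), and the median log2 change was −0.29. Adora2a, an adenosine receptor, was at 2.44 ± 0.123 FPKM in control and 1.74 ± 0.162 FPKM in CUMS (log2 change −0.33, limma adjusted p = 0.22). Calcrl, a receptor of calcitonin gene-related peptide and adrenomedullin, was at 3.99 ± 0.788 and 2.88 ± 0.206 FPKM. Avpr2, the Gs-coupled vasopressin receptor, was at 0.454, 1.05 and 0.864 FPKM in control and 2.26, 1.90 and 1.83 FPKM in CUMS, with CUMS above throughout (log2 change 0.76, adjusted p = 0.0759). Avpr2 passed under quantile normalization (limma adjusted p = 0.0459), in code 2 alone (0.0304), with a term for the code (0.0145) and with the replicate block (0.0317). With the block Hrh2, a histamine receptor, had an adjusted p of 0.0421 for a log2 change of −0.37. In code 2 alone 2 genes of this list were called higher and 0 lower, where 8.82% and 8.84% of all tested genes were. They were Avpr2 and Gpr65, the latter with a log2 change of 0.295 (limma adjusted p = 0.0482).

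Summed markers of several cell types differed in range between the groups. The 5 B cell markers summed to 522 to 616 FPKM in control and 432 to 494 FPKM in CUMS, and the 4 eosinophil and basophil markers to 507 to 709 and 1140 to 1170 FPKM, with 2 of these 4 called higher (0.618% of all tested genes). The 4 stromal and bone markers summed to 59.6 to 64.3 and 77.5 to 83.5 FPKM. The 5 erythroid markers summed to 48300 to 59100 FPKM in control and 59100 to 72400 FPKM in CUMS, ranges that meet at their ends. No single B cell, stromal, bone or erythroid marker passed the test. Of the 5 monocyte markers 2 were called lower (0.455% of all tested genes), though the sums overlapped (863 to 1100 and 869 to 963 FPKM), and the neutrophil sums overlapped as well (35100 to 49800 and 38200 to 39500 FPKM). In bulk marrow a change in the number of cells of a type and a change in RNA per cell cannot be told apart, and the part of cell makeup in the differences given here was not tested.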

How the data were processed

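RNA of 6 bone marrow samples was sequenced. The deposited values were taken as FPKM made by the authors, judging by the numbers themselves. Tools listed in the submitters' processing notes include the aligner HISAT2 2.1 and, for counting, featureCounts 1.6.4, with mm10; the role of each and the use of strand are not given in the sources used here. The depth in counts is unknown.

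Groups followed the sample titles. A gene was tested where 3 of 6 libraries or more had 1 FPKM or more, by limma 3.58.1 with trend (R 4.3.3) on log2(FPKM + 1), with group as the only term, adjusted over all tested genes by Benjamini-Hochberg, and the script was tested on simulated data. The tests had been written for FPKM. Members and lists (105 pathway genes) were chosen with earlier results of these data known. Named genes were the members, each list's called genes and up to 3 others with the smallest p, with the 3 closest profiles for 3 members. Grk3, Grk6, Hrh2 and the genes at or near 0 were added after their values were seen, and 2 genes were taken off the lists then and are not reported here. Replicate numbers come from the titles. Deviations from group means correlated by 0.689, 0.452 and 0.363 within pairs of 1 number, all above 0.1, so blocked values are given where they change a call. Crossing replicates 2 and 3 gave 0.459 and 0.362, about as high, and replicate 1 is also header code 1. Alternatives covered pseudocount, filter, scaling, block, header code and each library left out. Gene positions are from GENCODE M21 (GRCm38).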

Additional observations from a re-analysis of the deposited data

How the results depend on the processing

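Among the 5 tested members, Gnas, Arrb2, Pde4b and Pde4d kept their direction and stayed short of the threshold under all 15 alternatives each, with log2 changes of −0.18 to −0.001, −0.14 to −0.05, 0.06 to 0.14 and 0.24 to 0.47. Arrb1 ranged from 0.11 to 0.39 and passed under 2 of 15, with the header code as a term (0.27) and in code 2 only (0.23). On the log scale Adrb1 depended on the pseudocount (−0.12, and −0.22 with 0.5 and −0.58 with 0.1), as did Adra2a (0.07, 0.14 and 0.55), which came to 0.12 after scaling to the same total. The number of all genes called was 36 with no filter, 199 with quantile normalization, 959 with the replicate block, 1645 with the code as a term, 2173 in code 2 only, and 17 to 262 when leaving out 1 library. Of the 71 pathway genes tested 3 were called, beside 1.07% of all tested genes. The number was 11 with the block, 15 with the code term and 19 in code 2 only. In these fits 7.8%, 13.4% and 17.7% of all tested genes were called. In each of them 8 of the calls were in the list of genes induced by cAMP, which was chosen with earlier results known. The number was 1 of 99 tested with no filter, 2 with libraries brought to 1 sum and 4 with quantile normalization. It was 0 to 3 when leaving out 1 library. The block changed no call of a member, and no call beyond those given with the lists. Signs turned without any call for Adcy7 (−0.37 to 0.10), Adcy9 (−0.21 to 0.04) and Creb1 (−0.028 to 0.205). Causes were not tested.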

Other observations

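For the 3 tested members that varied most over the 6 libraries, the tested genes with the closest profiles were sought by the root mean square difference of centred log2(FPKM + 1) values, as a description over 6 libraries that share a header code effect. Closest to Arrb1 were Rb1 (0.0238), Paqr9 (0.0244) and Yod1 (0.0286), where the median over all tested genes was 0.297. Rb1 was at 19.9, 28.5 and 25.7 FPKM in control and 25, 32.4 and 32.6 FPKM in CUMS, so that it too was lowest in the library of code 1 in each group. Closest to Pde4d were Utp15 (0.0345), Mmp14 (0.0402) and Acss1 (0.0415), beside a median of 0.244. Mmp14, a membrane-bound matrix protease, was at 2.32, 2.40 and 2.67 FPKM in control and 2.91, 3.14 and 3.32 FPKM in CUMS, with the groups apart as for Pde4d. Closest to Gnas were Zfp511 (0.0272), H13 (0.0273) and Plp2 (0.0302), beside a median of 0.203. These 3 were highest in the library of code 1 in each group, as Gnas was.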
